A study of Mus musculus with 6 samples.

Results

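The genes described here are 40 protein-coding genes of nucleolar ribosome biogenesis, listed by name and grouped by their known role in making ribosomes. All 40 were found by symbol among the 54532 genes of the count table, and all 40 passed the filter on low counts that left 15938 genes for testing. They were measured in mouse CD4+ T cells cultured for 72 h under Th1 conditions, with or without ALX-5407, which blocks GlyT1, a transporter of the amino acid glycine. The 3 control libraries came from Th1 cells with the vehicle (0.1% DMSO), and the 3 ALX-5407-treated libraries from Th1 cells given the inhibitor at 500 nM.

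All 6 cultures shared the same start. CD4+ T cells were taken from spleens of male C57BL/6 mice aged 6 to 8 weeks by magnetic negative selection, activated with anti-CD3 and anti-CD28, and polarised with IL-2, IL-12 and anti-IL-4. The labels call the libraries of a group biological replicates but do not tie them to separate mice, so p-values measure the spread between these samples, which may be technical.

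Ribosomes are assembled in the nucleolus. RNA polymerase I, helped by RRN3, UBTF and the SL1 complex, copies the ribosomal DNA into a long precursor RNA. Box C/D and box H/ACA ribonucleoproteins modify that precursor at sites chosen by their small nucleolar RNAs (snoRNAs), and processome and assembly factors cut it, fold it and join it to ribosomal proteins. Activated T cells enlarge their nucleoli as they grow and divide, and many of these genes are known targets of the transcription factor MYC.

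Each library held 30801753 to 36727788 counts. Counts were scaled to a common library size, as CPM, with TMM factors of 0.965 to 1.03. Ribosomal RNA genes, nuclear and mitochondrial together, took 0.15% to 0.226% of counts in Th1 and 0.219% to 0.239% with ALX-5407. Among markers of cell types, the 6 of T helper cells summed to 2061 ± 94.6 CPM in Th1 and 1555 ± 26.8 CPM with ALX-5407 (SD, n = 3). Within this sum, the means of Cd4 (646 and 470 CPM), Ifng (660 and 383 CPM) and Cd3g (231 and 181 CPM) were lower with ALX-5407. That of Tbx21 was higher (81.6 and 104 CPM). Trac (270 and 271 CPM) and Cd3e (173 and 148 CPM) had overlapping groups. The 4 B cell markers summed to 5.52 to 6.73 CPM in Th1 and 7.42 to 10.4 CPM with ALX-5407, the 2 of CD8 T cells to 9.25 to 9.59 and 6.71 to 8.87 CPM, and the 5 of myeloid cells to 15.3 to 20.9 and 5.32 to 6.3 CPM. The myeloid sum was nearly all Cd68 (18.3 ± 3.16 and 5.44 ± 0.345 CPM, SD, n = 3), and Csf1r, Adgre1, Lyz2 and Itgam were near 0. The lists for NK and dendritic cells reached at most 1.05 CPM in a library, and Siglech had no count in any. The part of these differences in the results was not tested.

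The sequences that bear on the MYC link are promoters with an E-box, CACGTG, the site that MYC binds with its partner MAX. Shown are windows of 3 genes that rose with ALX-5407 and that belong to transcription by RNA polymerase I (Rrn3), to large subunit assembly (Nop2) and to the small subunit processome (Utp18). Each runs 5′ to 3′ on the gene's strand and lies before the transcription start site given by RefSeq on GRCm38.p6, with the E-box in capitals.
Rrn3, chr16:13780449-13780698, plus strand: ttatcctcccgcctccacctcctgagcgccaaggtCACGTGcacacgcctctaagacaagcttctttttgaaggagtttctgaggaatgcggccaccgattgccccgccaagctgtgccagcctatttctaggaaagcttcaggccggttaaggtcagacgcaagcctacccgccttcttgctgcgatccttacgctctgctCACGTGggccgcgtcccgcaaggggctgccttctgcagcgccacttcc
Nop2, chr6:125131783-125131882, plus strand: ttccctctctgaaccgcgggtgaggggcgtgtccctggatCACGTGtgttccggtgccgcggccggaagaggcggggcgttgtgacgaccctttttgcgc
Utp18, chr11:93885767-93885866, minus strand: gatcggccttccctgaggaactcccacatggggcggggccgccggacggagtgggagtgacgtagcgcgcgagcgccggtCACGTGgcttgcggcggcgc
The Rrn3 window carries the E-box at 2 places, and the other windows at 1 place each. These 3 are among 8 listed genes whose promoter holds the motif, of which Pes1 fell and Wdr43 did not pass. The rise of Utp18 was among the least firm. Promoters of 11.5% of tested genes hold the motif too, and a role of MYC in the rises was not tested.

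The nucleolar genes were on balance higher in ALX-5407-treated Th1 cells than in control, by modest amounts, and the most abundant of them was lower. At an adjusted p under 0.05 (edgeR quasi-likelihood test, Benjamini-Hochberg over all 15938 genes), 20 of the 40 rose, 4 fell and 16 did not pass. Of all genes tested, 24.5% were called higher and 23.2% lower, against 50% and 10% of the nucleolar genes. The median log2 fold change of the 40 was 0.25, with quartiles of 0.079 and 0.46, and that of all genes was 0.0053. In bulk RNA, a change in the share of cells that make a transcript and a change in its amount per cell cannot be told apart.

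Each of these genes is well expressed, with a mean of at least 620 counts a library. Over the 7545 genes with a mean of 600 counts or more, 34.6% were called higher and 27.5% lower, with a median log2 fold change of 0.05, so the share of nucleolar genes called higher was above that of genes with similar counts, and the share called lower was below it. The 40 genes were chosen with earlier results of these data known, so this comparison describes the list and is no test of it. No nucleolar gene passed the stricter rule that also asks for an absolute log2 fold change over 1, which 3.36% of all genes met upward and 6.68% downward. That count was 0 in edgeR, DESeq2 and limma. At an unadjusted p under 0.05, edgeR placed 23 of the 40 higher and 4 lower, against 27.4% and 26.1% of all genes tested.

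**Figure D1:**
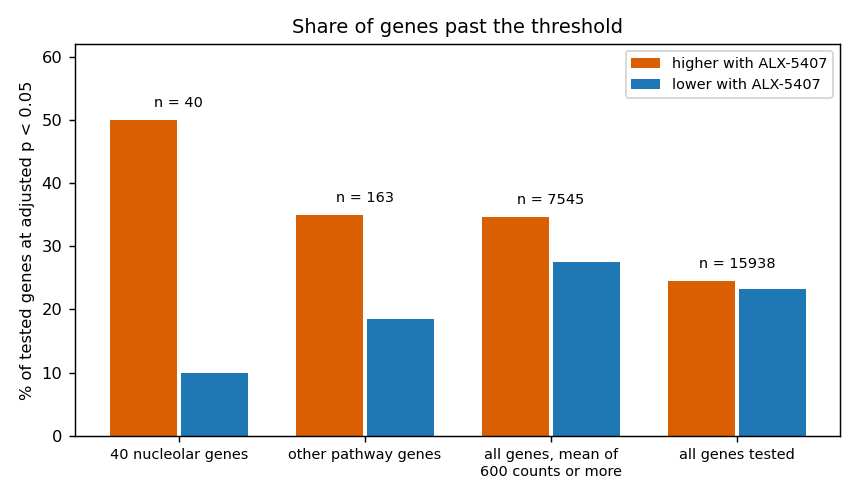
Percentage of tested genes called higher (orange) or lower (blue) with ALX-5407 at an adjusted p under 0.05, for the 40 nucleolar genes, 163 other genes of the pathway, 7545 genes whose mean is at least 600 counts, and all 15938 genes. The nucleolar genes have the tallest bar for higher (50%) and the shortest for lower (10%).

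In 22 of the 40 genes every ALX-5407 library lay above every control library in CPM, and in 4 every ALX-5407 library lay below. Over all genes tested, the groups did not overlap in this way for 28.4% upward and 27.1% downward. Wdr43 and Nop16 were separate between groups but did not pass the test, with log2 fold changes of 0.11 and 0.19. The plot of each library shows the separation by role.

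**Figure D2:**
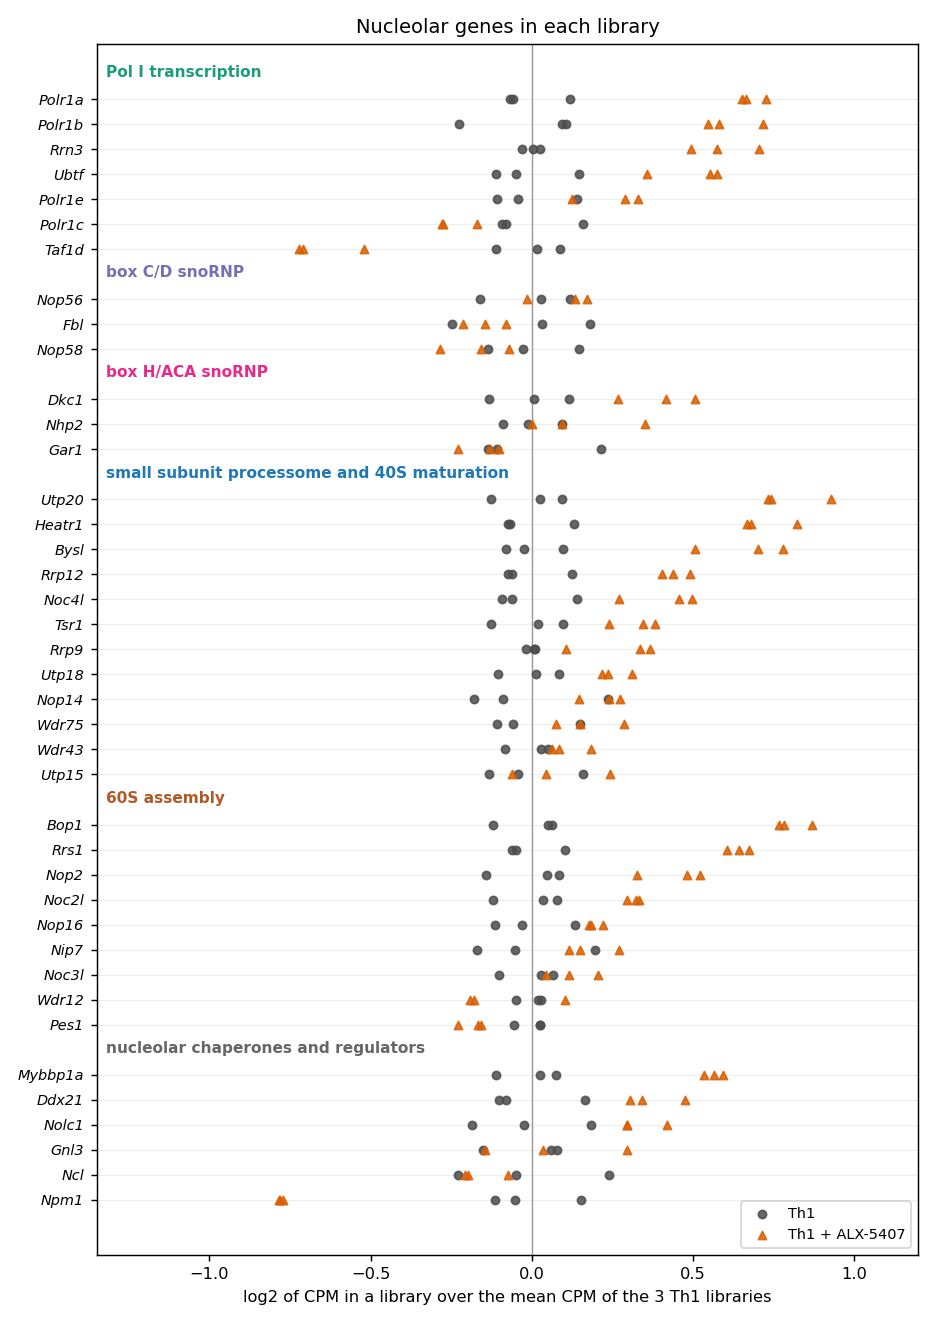
Log2 of the CPM in each library over the mean CPM of the 3 Th1 libraries, for the 40 genes grouped by role (circles, Th1; triangles, Th1 with ALX-5407). Triangles lie to the right of all circles in 22 genes and to the left in 4 (Polr1c, Taf1d, Pes1 and Npm1).

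The genes of RNA polymerase I transcription moved in both directions. Of 7, 4 rose and 2 fell (57.1% and 28.6%, against 24.5% and 23.2% of all genes tested). Their median log2 fold change was 0.50. Polr1a, the largest subunit of the enzyme (chr6:71909053-71984935), measured 63.3, 55.6 and 56 CPM in the 3 Th1 libraries and 92.5, 91.7 and 96.4 CPM in the 3 ALX-5407 libraries. The lowest ALX-5407 library was far above the highest control. Its log2 fold change was 0.68 ± 0.0756 (SE, adjusted p = 1.96e-06). Polr1b, the second-largest subunit, went from 31 ± 3.94 to 47.5 ± 3.01 CPM (SD, n = 3), a log2 fold change of 0.62 (adjusted p = 6.68e-05).

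Rrn3, the factor that brings the polymerase to the promoter and whose own promoter is shown above, measured 55.2, 54.3 and 53.1 CPM in control and 76.3, 80.8 and 88.4 CPM with ALX-5407. The controls lay within a narrow band and all treated libraries were above it. The log2 fold change was 0.59 ± 0.0761 (SE, adjusted p = 8.76e-06). Ubtf, which bends and marks active ribosomal DNA, rose from 96.8 ± 9.29 to 137 ± 10.7 CPM (log2 fold change 0.50, adjusted p = 0.000131).

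Polr1c, a subunit that RNA polymerases I and III share, went the other way. It measured 87.3, 88.1 and 104 CPM in control and 82.8, 76.8 and 77 CPM with ALX-5407, with a log2 fold change of -0.24 (adjusted p = 0.0218). The groups did not overlap, but the call was close to the threshold. It was lost without Th1 replicate 3 (-0.17, adjusted p = 0.0558), without ALX-5407 replicate 2 (-0.22, adjusted p = 0.0974) and without ALX-5407 replicate 3 (-0.22, adjusted p = 0.0782). It was also lost with all 6 libraries when scaled by library totals only (-0.18, adjusted p = 0.0868). Polr1e, the subunit homologous to yeast Rpa49, had overlapping groups (log2 fold change 0.25, adjusted p = 0.0606), and passed without Th1 replicate 3 (0.31, adjusted p = 0.0245) or ALX-5407 replicate 1 (0.32, adjusted p = 0.0462).

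Taf1d, a subunit of the SL1 complex (chr9:15306214-15316991), had the second-largest decrease of the 40. It measured 162, 186 and 177 CPM in control and 122, 107 and 106 CPM with ALX-5407. All treated libraries were well below control, and the log2 fold change was -0.65 ± 0.0789 (SE, adjusted p = 5.37e-06). Taf1d also carries 8 snoRNAs, the most of any gene described here.

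The core proteins of the box C/D ribonucleoprotein, which guides methylation of ribosomal RNA, did not move together. In the edgeR fit used throughout (all 6 libraries, TMM scaling, no offsets), none of the 3 passed the test, nor an unadjusted p under 0.05. None passed in DESeq2 or limma. The methyltransferase Fbl measured 147, 163 and 121 CPM in control and 130, 136 and 124 CPM with ALX-5407, so all treated libraries fell within the range of the controls (log2 fold change -0.15, adjusted p = 0.21). Fbl was called lower without Th1 replicate 3 (-0.27, adjusted p = 0.00405) and was at -0.058 without Th1 replicate 2. Its partners Nop56 and Nop58 had log2 fold changes of 0.10 and -0.17 (adjusted p = 0.324 and 0.0997). Nop58 was called lower with upper quartile scaling (-0.23, adjusted p = 0.0326), with protein-coding genes only (-0.22, adjusted p = 0.0336), with length and GC fitted out (-0.20, adjusted p = 0.0364) and without Th1 replicate 1 (-0.24, adjusted p = 0.0446).

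Of the 3 box H/ACA proteins, which guide pseudouridylation, Dkc1 passed the test. This pseudouridine synthase measured 65.4, 72.1 and 77.7 CPM in control and 95.8, 86.4 and 102 CPM with ALX-5407, a rise of 0.40 on the log2 scale (adjusted p = 0.000879). Nhp2 and Gar1, its small partners, had log2 fold changes of 0.16 and -0.15 and overlapping groups. Nhp2 was at 0.40 (adjusted p = 0.00139) with length and GC fitted out of each library, where Gar1 was at -0.033, and Gar1 was at -0.23 (adjusted p = 0.0486) without Th1 replicate 3 and at -0.046 without Th1 replicate 2.

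All 12 listed genes of the small subunit processome had a log2 fold change above 0, 8 rose and the other 4 did not pass, and the median was 0.30. Of all genes tested, 8041 of 15938 were above 0, and of 45 other genes of the same role 26 were above 0 and 19 below, so the shared direction was that of the 12 listed genes and not of the role as a whole. Utp20, a long helical-repeat scaffold (chr10:88746607-88826804), measured 34.2, 38 and 39.9 CPM in control and 62.1, 62.5 and 71.2 CPM with ALX-5407. Every treated library exceeded the highest control by a wide margin, and the log2 fold change of 0.81 ± 0.0859 (SE, adjusted p = 1.33e-06) was, with that of Bop1, the largest of the 40.

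Heatr1, the mammalian UTP10 (chr13:12395027-12440289), measured 69.6, 69.3 and 79.9 CPM in control and 117, 116 and 129 CPM with ALX-5407. The groups were far apart, with a log2 fold change of 0.72 ± 0.079 (SE, adjusted p = 1.69e-06). Bysl, needed for late processing of the small subunit, measured 22.8, 21.9 and 24.8 CPM in control and 37.7, 32.9 and 39.8 CPM with ALX-5407 (log2 fold change 0.67, adjusted p = 2.58e-05). Its exons overlap those of Ccnd3 on the other strand over 9.37% of their length, and whether the counting used strand is not given in the sources used here.

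Smaller rises passed the test for the export-related factor Rrp12 (log2 fold change 0.44, adjusted p = 0.000164), for Noc4l, the partner of Nop14 (0.41, adjusted p = 0.00106), and for Tsr1, a GTPase-like factor of the pre-40S particle (0.32, adjusted p = 0.00592). Tsr1 shares 32.3% of its exon length with Srr on the other strand. The rises of the U3 ribonucleoprotein component Rrp9 (0.27, adjusted p = 0.0163) and of Utp18 (0.25, adjusted p = 0.0132) were the least firm. The adjusted p of Rrp9 was 0.0502 without Th1 replicate 2, 0.0661 without ALX-5407 replicate 1 and 0.0878 without ALX-5407 replicate 2, and that of Utp18 was 0.0806 without Th1 replicate 1. The WD-repeat proteins Wdr43 and Wdr75 and the processome components Utp15 and Nop14 had log2 fold changes of 0.081 to 0.22 and did not pass. Wdr75 passed without Th1 replicate 3 (0.24, adjusted p = 0.0199) and Nop14 without Th1 replicate 2 (0.34, adjusted p = 0.00503).

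Among the 9 genes of large subunit assembly, 4 rose and 1 fell (44.4% and 11.1%, against 24.5% and 23.2% of all genes tested). Their median log2 fold change was 0.19. Bop1, a member of the PeBoW complex (chr15:76452989-76477277), measured 40.8, 35.9 and 40.4 CPM in control and 71.4, 66.5 and 67.1 CPM with ALX-5407. The groups were widely separated, and the log2 fold change was 0.81 ± 0.0789 (SE, adjusted p = 5.01e-07). The values of its partners in that complex were below 0. Pes1 measured 112, 112 and 106 CPM in control and 98, 98.6 and 93.8 CPM with ALX-5407, a log2 fold change of -0.19 (adjusted p = 0.0339), and Wdr12 did not pass, at -0.082 (adjusted p = 0.49).

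The decrease of Pes1 was small and its call was lost on leaving out any 1 library but Th1 replicate 3, with adjusted p-values of 0.083 without Th1 replicate 1, 0.0706 without Th1 replicate 2, and 0.0893, 0.0905 and 0.117 without ALX-5407 replicates 1, 2 and 3. Rrs1, which helps to load the 5S particle, rose from 22.7 ± 1.43 to 35.5 ± 0.818 CPM (SD, n = 3, log2 fold change 0.64, adjusted p = 1.51e-05). Nop2, an RNA methyltransferase whose promoter is shown above, measured 66.5, 68.3 and 58.3 CPM in control and 89.9, 80.8 and 92.4 CPM with ALX-5407 (log2 fold change 0.45, adjusted p = 0.000292).

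Noc2l, a pre-60S export factor, rose by 0.32 on the log2 scale (adjusted p = 0.0016), with 20.9% of its exon length shared with Samd11 on the other strand. The remaining large subunit factors Nop16, Noc3l and Nip7 had log2 fold changes of 0.12 to 0.19 and did not pass. Nop16 passed without Th1 replicate 2 (0.25, adjusted p = 0.0357) and Nip7 without Th1 replicate 3 (0.27, adjusted p = 0.0121).

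The abundant nucleolar chaperones gave the widest range. Npm1, nucleophosmin, the histone and ribosome chaperone of the granular nucleolus (chr11:33152287-33163206), measured 2499, 2882 and 2398 CPM in control and 1519, 1506 and 1510 CPM with ALX-5407. The treated libraries were nearly identical and all far below control, and the log2 fold change of -0.78 ± 0.0773 (SE, adjusted p = 6.01e-07) was the largest decrease of the 40. Npm1 has 4 annotated pseudogene copies that match 53.8% of its longest transcript. Counts on these copies came to 5.28% of the reads on gene and copies together, and the summed level was 2742 ± 279 CPM in control and 1591 ± 7.91 CPM with ALX-5407.

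Ncl, nucleolin, the second in abundance, did not pass. It measured 1456, 1777 and 1286 CPM in control and 1312, 1305 and 1432 CPM with ALX-5407, with all treated libraries inside the range of the controls (log2 fold change -0.16, adjusted p = 0.196). Without Th1 replicate 3 it was called lower (-0.28, adjusted p = 0.00626), and without Th1 replicate 2 it was at -0.035. Gnl3, nucleostemin, did not pass either (log2 fold change 0.074, adjusted p = 0.583).

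The other 3 genes of this group rose. Mybbp1a, a MYB-binding regulator of ribosomal DNA, measured 199, 206 and 181 CPM in control and 289, 283 and 295 CPM with ALX-5407 (log2 fold change 0.57, adjusted p = 7.87e-06). The RNA helicase Ddx21 measured 253, 300 and 249 CPM in control and 330, 339 and 372 CPM with ALX-5407 (0.38, adjusted p = 0.00136). Nolc1, a chaperone of snoRNA particles, rose by 0.34 (adjusted p = 0.00492). In each of these 3 genes the lowest treated library was above the highest control.

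**Figure D3:**
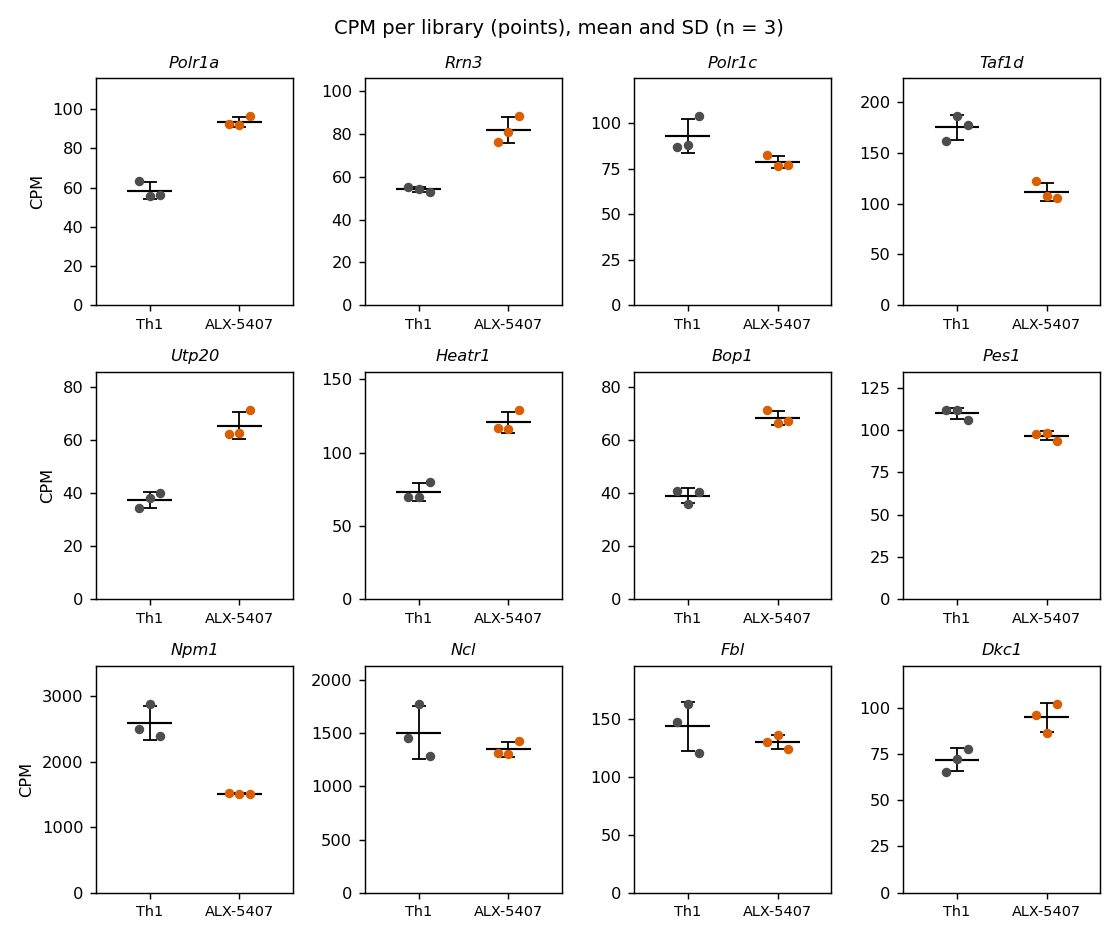
CPM in each library for 12 of the genes, on axes that start at 0, with the mean and SD of each group (n = 3). Polr1a, Rrn3, Utp20, Heatr1, Bop1 and Dkc1 are higher with ALX-5407, Taf1d and Npm1 are clearly lower, Polr1c and Pes1 lower by a small step, and Ncl and Fbl overlap.

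Because Npm1 is so abundant, the sum of the 40 genes did not follow the count of genes. Npm1 alone made up 36.6% to 37.2% of their summed CPM in control and 23.2% to 24.5% with ALX-5407. The sum was 6788, 7738 and 6550 CPM in control and 6306, 6150 and 6497 CPM with ALX-5407. Without Npm1 and Ncl, the other 38 summed to 2833, 3078 and 2866 CPM in control and 3475, 3338 and 3555 CPM with ALX-5407. All treated libraries were thus lower than control with the 2 abundant genes in the sum, and higher with them left out.

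**Figure D4:**
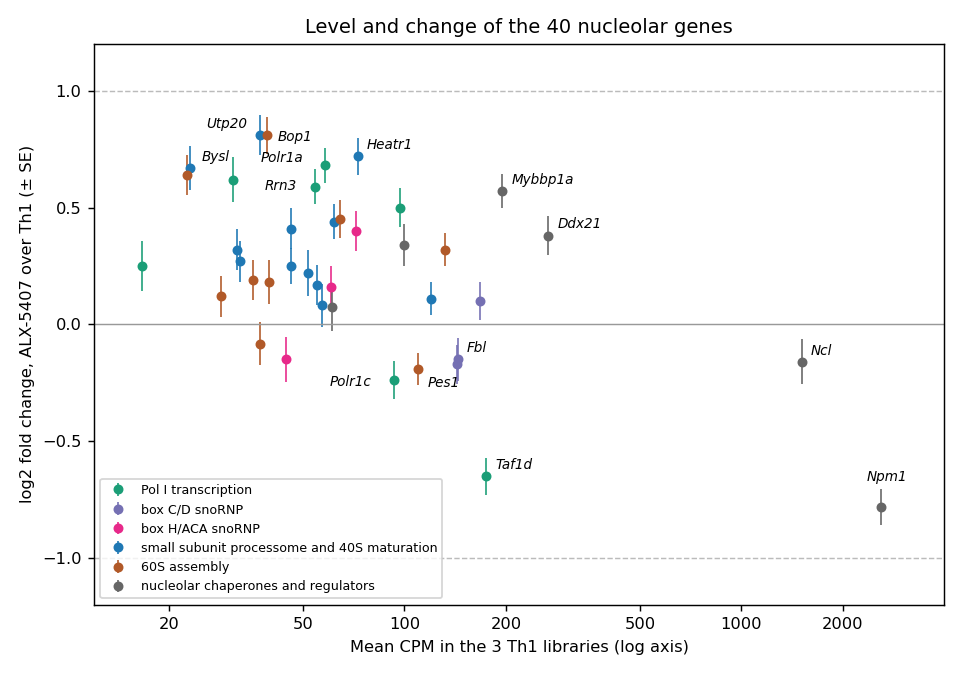
Mean CPM in the 3 Th1 libraries (log axis) and log2 fold change with its SE for each of the 40 genes, coloured by role. No gene reaches the dashed lines at a log2 fold change of 1 or -1, and Npm1 (2593 CPM, -0.78) and Ncl (1507 CPM, -0.16) stand apart from the rest in abundance.

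Per kilobase of exon, the order of levels in control began with Npm1 (973 ± 95.9 RPKM, SD, n = 3) and Ncl (148 ± 24.5 RPKM), followed by Nhp2 (52.9 ± 3.36 RPKM) and Ddx21 (51.6 ± 5.58 RPKM), whose levels differed by less than their spread. The lowest levels per length were those of Utp20 (3.66 ± 0.288 RPKM) and Wdr12 (3.11 ± 0.0931 RPKM). For Wdr12 the length used was 11955 bases, from the merged exons of all its annotated transcripts. In CPM, Wdr12 (37.2 ± 1.11) was above Polr1e (16.7 ± 1.53) in control, so its rank depends on that length.

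Ratios between transcripts whose proteins work together moved within the libraries. These pairs were chosen after their values were seen, and they are a description with no test. The ratio of Bop1 to Pes1 in CPM was 0.363, 0.322 and 0.379 in control and 0.728, 0.674 and 0.716 with ALX-5407. That of Polr1a to Polr1c was 0.724, 0.632 and 0.536 in control and 1.12, 1.19 and 1.25 with ALX-5407. Both ratios were higher in every treated library.

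The ratio of Ncl to Npm1 went from 0.579 ± 0.0402 to 0.893 ± 0.0481 and that of Dkc1 to Gar1 from 1.63 ± 0.263 to 2.38 ± 0.305 (SD, n = 3). A ratio within a library does not depend on the scaling between libraries, and it shows unequal change, not which of the genes changed.

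**Figure D5:**
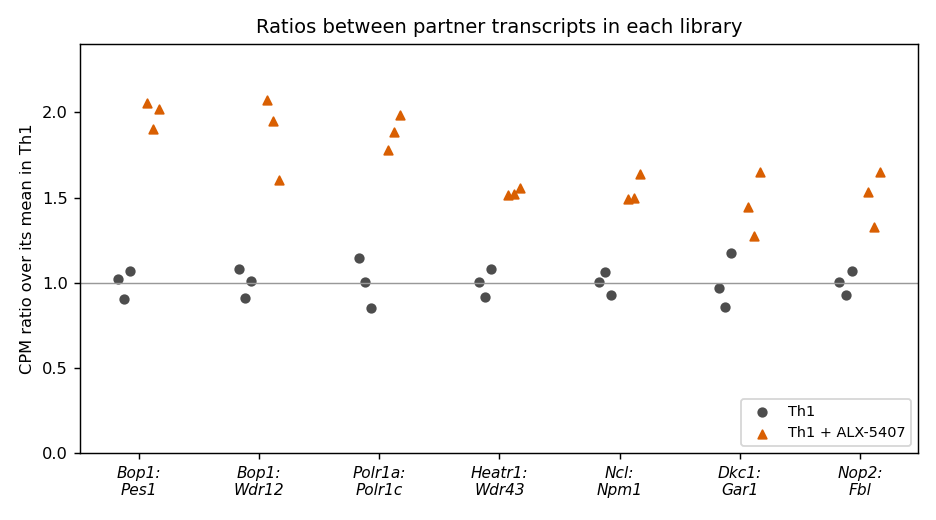
Ratio of the CPM of 2 partner genes in each library, divided by its mean in the 3 Th1 libraries (circles, Th1; triangles, Th1 with ALX-5407). In all 7 pairs the 3 triangles lie above the 3 circles.

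Of the 40 genes, 35 had a promoter in the RefSeq table, 250 bases before to 50 after the start. Fbl, Rrp12, Bop1, Rrs1 and Npm1 were not matched. The E-box CACGTG, which reads the same on both strands, was present in 8 of the 35 (22.9%): Mybbp1a, Nop2, Pes1, Rrn3, Tsr1, Utp18, Utp20 and Wdr43. Promoters of the same length held it for 11.5% of tested genes and for 8.09% of all genes in the table. Of the 8 genes with the motif, 6 rose, 1 fell (Pes1) and 1 did not pass (Wdr43), and of the 27 with a promoter and no motif, 11 rose and 2 fell. Of the 5 not matched, 3 rose and 1 fell. Over all genes tested, 24.5% were called higher and 23.2% lower. Calls among all tested genes with the motif were not counted, so these numbers do not tie the motif to the rises. The motif lay before the start in Rrn3, Nop2 and Utp18, and 2 to 40 bases after it in Pes1, Wdr43, Tsr1, Utp20 and Mybbp1a. The motif is a match of letters and no measure of binding, and a role of MYC in these changes was not tested.

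The genes that could act on that motif moved in different directions. Of 11 genes of the MYC network, 2 rose and 4 fell (18.2% and 36.4%, against 24.5% and 23.2% of all genes tested). Myc measured 169, 180 and 175 CPM in control and 242, 248 and 287 CPM with ALX-5407, with no overlap (log2 fold change 0.57 ± 0.0773, SE, adjusted p = 1.62e-05). Its DNA-binding partner Max fell, from 139 ± 16.7 to 99.7 ± 2.27 CPM (SD, n = 3, log2 fold change -0.48, adjusted p = 0.000185).

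Among the MXD proteins, which compete with MYC for MAX, Mxd3 rose from 3.21 ± 0.477 to 10.5 ± 0.457 CPM (log2 fold change 1.70, adjusted p = 2.21e-07). Mxd1 fell by 0.40 on the log2 scale (adjusted p = 0.00197) and Mxd4 fell by 0.63 (adjusted p = 3.88e-06). The low-expressed Mycl fell from 2.12 ± 0.272 to 0.952 ± 0.227 CPM (log2 fold change -1.15, adjusted p = 0.00362). Mycn (-0.24), Mnt (-0.09), Mlx (0.11), Mxi1 (-0.20) and Mga (-0.089) did not pass, with adjusted p-values of 0.435, 0.567, 0.352, 0.0508 and 0.313.

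Beyond the 40, 163 of 165 further genes of the pathway were tested. Of these, 57 rose and 30 fell (35% and 18.4%, against 24.5% and 23.2% of all genes tested). Their median log2 fold change was 0.10. Among genes with a mean of 600 counts or more, 34.6% were called higher and 27.5% lower. The share called higher was thus close to that of these well-expressed genes, and the share called lower was below it. The 163 genes were not held to that count, and the lowest mean among them was 17.3 counts. Other small subunit factors were called higher in 21 of 45 and lower in 9 (46.7% and 20%), and other large subunit factors in 13 and 6 of 45 (28.9% and 13.3%). The smallest p-values among small subunit factors were those of Pwp2 (0.90, adjusted p = 2.52e-06) and Tbl3 (0.73, adjusted p = 3.65e-06), both of the UTP-B complex with Utp18, and in the other direction of the kinase Riok1 (-1.02, adjusted p = 1.46e-08) and of Pno1 (-0.63, adjusted p = 0.000138). For large subunit factors they were Wdr18 (0.74, adjusted p = 1.4e-06) and Urb2 (0.94, adjusted p = 2.5e-06) upward, and Nsa2 (-0.64, adjusted p = 1.22e-05) and Las1l (-0.27, adjusted p = 0.00685) downward.

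Around RNA polymerase I, 3 of 14 further genes rose and 5 fell (21.4% and 35.7%, against 24.5% and 23.2% of all genes tested). Tcof1, the treacle protein of the nucleolus (0.64, adjusted p = 6.28e-06), and the SL1 subunit Taf1c (0.50, adjusted p = 0.00159) rose, while the shared polymerase subunits Polr1d (-0.58, adjusted p = 2.96e-06) and Polr2k (-0.63, adjusted p = 0.000719) fell. Polr1d pairs with Polr1c in the enzyme, and both fell. In the box C/D group the assembly factors Nufip1 (-0.43, adjusted p = 0.000418) and Znhit6 (-0.50, adjusted p = 0.00214) fell, and in the box H/ACA group the assembly factors Shq1 (0.73, adjusted p = 0.000254) and Naf1 (0.46, adjusted p = 0.000308) rose.

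In RNA processing and the exosome, 8 of 23 rose and 5 fell (34.8% and 21.7%, against 24.5% and 23.2% of all genes tested). Eri1 (0.54, adjusted p = 1.42e-05) and Exosc3 (0.52, adjusted p = 3.62e-05) were higher. Exosc8 (-0.65, adjusted p = 4.14e-06) and the exosome cofactor Mphosph6 (154 ± 13.9 to 50.3 ± 3.26 CPM, -1.62, adjusted p = 5.53e-10) were lower. Of the RNA polymerase III and 5S genes, 8 of 19 rose and 2 fell (42.1% and 10.5%, against 24.5% and 23.2% of all genes tested). The TFIIIC subunits Gtf3c1 (0.49, adjusted p = 2.12e-05) and Gtf3c4 (0.60, adjusted p = 0.000113) were higher, and Gtf3c2 (-0.31, adjusted p = 0.0046) and Polr3gl (-0.47, adjusted p = 0.0112) lower. Of 8 further nucleolar regulators, Nol9 (0.74, adjusted p = 1.76e-06) and Gnl3l (0.19, adjusted p = 0.027) rose and Dnttip2 (-0.20, adjusted p = 0.0418) fell. These are 25% and 12.5% of the 8, near or below the shares of all genes.

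The cytosolic ribosomal protein genes, whose products these factors assemble, had a different pattern. Of 74, 68 fell (91.9%, against 23.2% of all genes tested) and the other 6 did not pass. All 74 had a log2 fold change below 0, and the median was -0.52 against 0.25 for the nucleolar genes.

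Some members carry snoRNA genes within their span: 8 of the 40 hold 29 snoRNAs, with 8 in Taf1d, 5 in Nop56, 4 in Nop58, 3 each in Gnl3, Ncl and Wdr43, 2 in Tsr1 and 1 in Dkc1. The 18 snoRNAs that touch an annotated exon of their host had no count in any library. These zeros follow position in the annotation, and how reads shared by a host exon and a snoRNA were counted is not given in the sources used here. They do not show that these snoRNAs were absent from the cells. The 11 that lie within introns had 306 counts in the 3 control libraries and 276 in the 3 ALX-5407 libraries, with at most 39 for 1 snoRNA in 1 library. Of the 8 hosts, 2 rose (Dkc1 and Tsr1) and 1 fell (Taf1d), with a median log2 fold change of 0.089. Of the other 32 genes, 18 rose and 3 fell, with a median of 0.30. Of all genes tested, 24.5% were called higher and 23.2% lower, with a median of 0.0053. Hosting was not used to choose the genes, and the difference between hosts and others was not tested.

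Gene length and base composition moved with the fold changes to different extents. Across the 40 genes, which share the same 6 libraries, the log2 fold change had a Pearson's r of 0.062 (Spearman's rho 0.097) with log2 gene length and of 0.43 (0.44) with the GC content of the longest transcript. Over all genes tested the corresponding values were 0.20 (0.21) and 0.07 (0.073). With length and GC fitted out of each library, 24 of the 40 genes were called higher and 4 lower, and 22 of the 24 original calls were kept. Polr1c (-0.17, adjusted p = 0.108) and Rrp9 (0.19, adjusted p = 0.0524) lost their calls there. Nop58 entered the lower calls, and Nhp2, Nop16, Nip7, Nop14 and Wdr43 entered the higher calls.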

How the data were processed

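RNA-seq was made from 3 Th1 and 3 ALX-5407-treated Th1 samples. Per the labels, messenger RNA was purified with poly-T beads from total RNA, while the methods describe depletion of ribosomal RNA, and the methods also give a shorter exposure to the inhibitor than the labels. The submitters' processing notes name fastp, HISAT2 2.0.5, featureCounts 1.5.0-p3 and the mm10 build. The strand setting, the handling of reads with several matches and the annotation release are not given in the sources used here. The gene coordinates matched GENCODE M21 for 98.3% of the shared identifiers, and this release was used for positions and overlaps.

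The authors deposited whole-number read counts per gene, not normalized, in 1 table of 54532 genes. Its annotation columns gave gene length and biotype. Counts were filtered with edgeR's filterByExpr (minimum count 10, total 15), scaled by TMM and fitted with the quasi-likelihood test in edgeR 4.0.16 (R 4.3.3), with group as the only term. Benjamini-Hochberg adjustment ran over all genes tested, and the threshold was 0.05. CPM and RPKM were computed from the counts with TMM library sizes. The common biological coefficient of variation was 0.0978.

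The 40 genes, their roles and the lists of other pathway genes, MYC network genes and markers were chosen with earlier results of these data known. A further marker list is not reported here. All 40 are described. Of the other pathway genes, those named are in each role the 2 with the smallest p among the higher and among the lower calls, and all MYC network genes are named. Alternatives were DESeq2 1.42.0, limma 3.58.1 with voom, other scalings and filters, a replicate block, protein-coding genes only, and leaving out each library. Length and GC offsets and a filter at a mean of 50 counts were added after seeing the data. Pseudogene copies were matches of at least 95% identity over at least 100 bases. Same-numbered libraries were compared for pairing. Libraries of a group differed by 5.35 to 20.2 times sampling noise (chi-square per degree of freedom), so none was a copy of another, which does not show that they come from separate animals.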

Additional observations from a re-analysis of the deposited data

How the results depend on the processing

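Over 17 alternatives, 18 of the 20 rises held in each (the exceptions were Rrp9 and Utp18) and 2 of the 4 decreases, those of Npm1 and Taf1d (the exceptions were Pes1 and Polr1c). With library totals as the only scaling, 24 genes were higher and 2 lower, 18 other pathway genes were lower (30 with TMM), and the median log2 fold change of the 40 was 0.31 instead of 0.25. That median was 0.20 with upper quartile scaling, 0.21 with protein-coding genes only and 0.30 with length and GC offsets, which were added after seeing the data. Leaving out 1 library in turn gave 19 to 23 genes higher, 2 to 6 lower, 19 to 28 other pathway genes lower and medians of 0.20 to 0.28. The lower counts of 2 came without ALX-5407 replicate 2 and without ALX-5407 replicate 3, and 19 came without ALX-5407 replicate 2. The sign of uncalled genes changed for Utp15 (-0.0015 without ALX-5407 replicate 3, up to 0.16) and Gnl3 (-0.0042 without Th1 replicate 1, -0.046 without ALX-5407 replicate 3, up to 0.18). The cause was not tested. The labels number the replicates in both groups, but same-numbered libraries had correlated deviations of 0.00889, 0.0181 and 0.104, so the numbers were not taken to pair samples. With a replicate block, 24 genes were higher and 4 lower, and the 24 called without the block kept their calls. With 3 libraries a group, members with a log2 fold change near 0.2 lay close to the threshold, and 11 of the 16 that did not pass were called in at least 1 alternative.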
